A study of Oryctolagus cuniculus with 2 samples.

Results

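The rows described here are genes whose level, in single nuclei of the rabbit retina, was far higher in a single type of cell than in any other. They were chosen from the deposited count matrix by their levels: molecule counts (unique molecular identifiers, UMIs) were summed per cell type over both libraries and scaled to counts per 1000000 UMIs (CPM). A row was taken where it had 100 or more UMIs and its highest cell type stood at least 10-fold above the second highest, with 0.5 CPM added to both. Of 15806 rows, 9020 had 100 UMIs or more, and 116 of these met the rule (1.29%). The matrix carries row numbers in place of gene names, so the rows are described by cell type and level and no gene is named. For the same reason no sequence could be tied to a row, and the level of CLRN1 itself, which would check the genotype labels, was not examined.

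The retina is a layered sheet in which each cell type has its own task and its own set of transcripts. Rods and cones are the photoreceptors, bipolar cells carry their signal inwards, and horizontal and amacrine cells adjust it sideways in the outer and inner synaptic layers. Retinal ganglion cells send it to the brain, and Müller glia span the whole thickness of the tissue, support the neurons and recycle transmitter and visual pigment precursors. CLRN1 codes for clarin-1, a membrane protein, and people who lack it have Usher syndrome, with deafness and retinal degeneration.

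Both groups were 10-month-old rabbits, of wild-type or CLRN1 knockout genotype, with no other allele or agent given in the labels. From each of 3 animals per genotype a 5 mm punch of the visual streak, the band of high cell density, was snap-frozen, and the nuclei of the 3 animals were mixed and captured as 1 library. The wild-type library held 3484 nuclei with 6916018 UMIs and the knockout library 3058 nuclei with 8233524 UMIs (medians of 1176 and 1553 UMIs per nucleus), and 5 cell barcodes occurred in both. With 1 library per genotype there is no replicate error and no p-value, and genotype, pool of animals and library cannot be told apart. The 95% intervals below, other than those of medians, are exact and cover counting error only. Intervals of a median are order-statistic intervals over the rows of a list, which are not replicates of a genotype. The cell types (7) and clusters (26) are the authors', made from these same counts, so the restriction of a row to a type is a description and not a finding. Cluster 16, labelled rods, held 2 wild-type and 76 knockout nuclei, and results that rest on it are given with and without it.

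Müller glia held more restricted rows than all other cell types together, with 63 of the 116 (54.3%). They made up only 2.83% of nuclei and 2.92% of UMIs. Retinal ganglion cells had 20 restricted rows, amacrine cells 13, horizontal cells 13, cones 3, rods 3 and bipolar cells 1. Of the rows of 100 UMIs or more that were highest in a type, the restricted ones were 4.45% in Müller glia, 1.49% in ganglion, 1.10% in amacrine and 1.24% in horizontal cells. In cones they were 0.159%, in rods 0.260% and in bipolar cells 0.101%. The number of rows did not follow the number of nuclei: rods were 65.7% of nuclei and 53.9% of UMIs, and had 2.59% of the restricted rows. Each type was also thinned to the UMI total of the smallest type, Müller glia, which therefore kept all their UMIs. With the limit of 100 UMIs kept on the unthinned totals, 118 rows met the rule, 66 of them in Müller glia and 3 in rods. Of the 49 rows at 20-fold or more 33 were Müller glia rows, and of the 5 at 100-fold or more 4 were. As a share of their list they stood near the horizontal cell rows. At 20-fold or more it was 33 of 63 against 6 of 13, and at 100-fold or more 4 of 63 against 1 of 13.

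**Figure D1:**
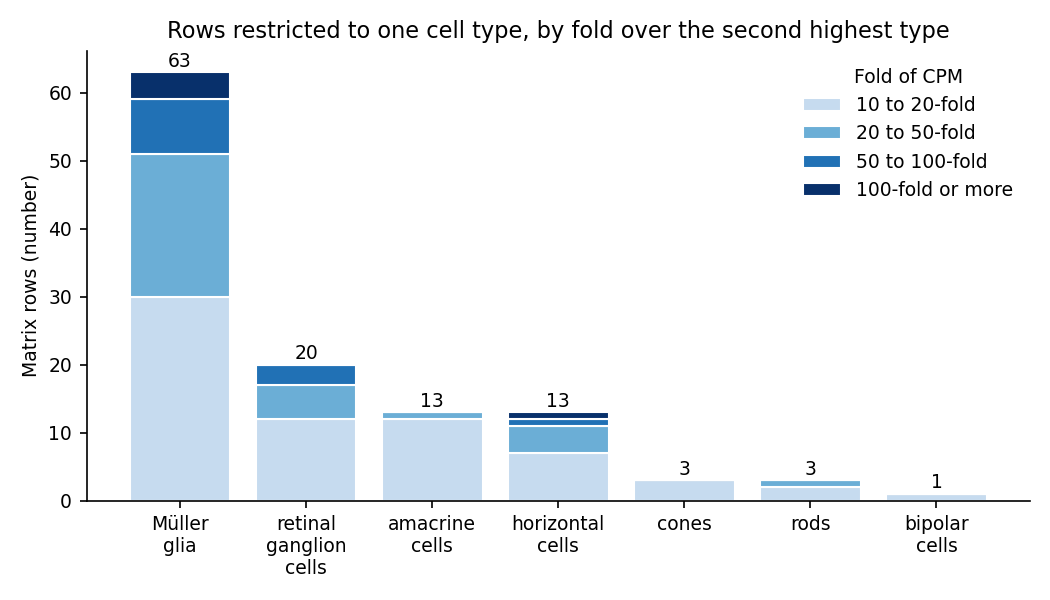
Number of matrix rows restricted to each cell type (y axis), with each bar divided by how far the row's highest cell type stood above the second highest in CPM. Müller glia have 63 rows, 33 of them at 20-fold or more, and rods, the most numerous nuclei, have 3.

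Restriction did not mean that most UMIs of a row lay in the type, since levels were scaled to the UMI total of each type. The fold ranged from 10.1 to 189 with a median of 18.3, while the share of a row's UMIs in its own type ranged from 30.5% to 100% with a median of 65.9%. In 33 rows under 50% of the UMIs came from the own type. In all, the 116 rows carried 65949 UMIs, or 0.435% of the total. One UMI was worth 2.26 CPM in Müller glia and 0.122 CPM in rods, so levels in the rare types are coarser.

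The values at the limits show how gradual the cut is. The row just inside the fold limit was a ganglion cell row of 1225 UMIs at 10.1-fold, and the row just outside was a ganglion cell row of 126 UMIs at 9.99-fold. A cone row of 11138 UMIs, at 7063 CPM in cones and 714 CPM in rods, stood just outside at 9.88-fold, above the level of each cone row inside. At the UMI limit, a horizontal cell row of 100 UMIs was inside and an amacrine cell row of 93 UMIs at 11.5-fold was outside. At 5-fold 265 rows would be taken.

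The abundant rows that were highest in rods failed the rule because the next cell type stood at a similar level. The row with the highest level in rods stood at 6986 CPM there and 4979 CPM in cones, a fold of 1.40. All 28 rows that were highest in rods and reached 1000 CPM had folds between 1.01 and 1.40. Cones were the second type for 9 of the 10 highest of these, at folds from 1.05 to 1.40 over the 10. Outside the 3 rod rows taken, the highest fold of a row that was highest in rods was 7.13.

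Among the Müller glia rows, the highest level was 4472 CPM in Müller glia (1979 UMIs), against 427 CPM in bipolar cells, the second type. It was found in 95.1% of Müller glia nuclei, and in 24.8% of all other nuclei, so that only 38.4% of its 5149 UMIs came from Müller glia. The next row was the most sharply restricted of all 116: 1618 CPM in Müller glia and 8.08 CPM in rods, 189-fold, with 90.2% of its 794 UMIs in Müller glia. It was detected in 81.1% of Müller glia nuclei and 0.960% of the others. The 63 rows ranged from 106 to 4472 CPM with a median of 330 CPM. Each of the 185 Müller glia nuclei had UMIs of the list, with a median of 71, and in none did another list have more. Outside Müller glia 56.7% of nuclei had at least 1 UMI of the list (median depth 1277 UMIs, against 2022 in Müller glia), so a single UMI does not mark the type.

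One Müller glia row stood apart, with 46 of its 47 Müller glia UMIs in a single knockout nucleus. Of its 121 UMIs in all, 68 were in rods, spread over 38 nuclei. Without that nucleus its highest type was no longer Müller glia. When the nucleus with most UMIs was left out for each row in turn, 9 of the 116 rows no longer met the rule, 3 of them horizontal cell rows, 2 ganglion cell rows and 2 rod rows. This alternative was chosen after seeing the data.

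The retinal ganglion cell rows ranged from 54.6 to 830 CPM in ganglion cells, with a median of 167 CPM, and reached folds of 80.1. The row with the highest level had 1368 of its 1411 UMIs in ganglion cells, 97.0%, and the row with the highest fold had 146 of 151 there. The 324 ganglion cell nuclei fall into cluster 7 (122 wild-type and 95 knockout nuclei) and cluster 14 (26 wild-type and 81 knockout nuclei), in which 97 of 107 nuclei had over 1% mitochondrial UMIs. Cluster 7 held 90% or more of the ganglion cell UMIs for 16 of the 20 rows. But its 217 nuclei had a median of 6458 UMIs, against 704 in cluster 14. Shares of UMIs therefore lean to cluster 7 for any row, and the clusters are compared by CPM. The clusters differed row by row: the highest row stood at 880 CPM in cluster 7 and 10.5 CPM in cluster 14, and 3 rows had no UMI in cluster 14. At the other end, 1 row stood at 67.6 CPM in cluster 7 and 2990 CPM in cluster 14, 43.9-fold higher, and another at 548 CPM and 3779 CPM, 6.89-fold higher. In all, 12 rows were higher in cluster 7 and 8 in cluster 14, counted by CPM without intervals. Some of the 8 rested on few UMIs in cluster 14, such as 8 and 9. Another, with 13 UMIs there, stood at 137 CPM in both clusters.

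Amacrine cells are the most varied neurons of the retina, and here their 13 rows divided among 11 clusters. The highest row, at 891 CPM in amacrine cells and 82.1 CPM in rods, was found in 39.0% of amacrine nuclei. The row in the fourth place had 612 of its 616 amacrine UMIs (99.4%) in cluster 13, at 1956 CPM and in 85.5% of that cluster's nuclei. A pair of further rows was as local, with 98.6% of amacrine UMIs in cluster 18 and 96.6% in cluster 17. The list was the highest of the 7 lists in 9 of the 11 clusters. In cluster 12 it reached 188 CPM and in cluster 17 1664 CPM, and there the horizontal cell list was higher, at 814 and 2007 CPM. Most of that was 1 row, the highest horizontal cell row, with 671 CPM in wild-type and 568 CPM in knockout nuclei of cluster 12, and 1979 and 1764 CPM in cluster 17.

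The horizontal cell rows marked 1 of the 3 horizontal cell clusters. Cluster 20, with 23 wild-type and 46 knockout nuclei, held the list at 22845 CPM, cluster 24 at 1183 CPM and cluster 19 at 556 CPM. In cluster 19 the Müller glia list was higher than the horizontal cell list, at 1107 CPM. The exception was a row with 58 of its 59 horizontal cell UMIs in cluster 19, at 304 CPM and in 52.9% of its nuclei. The highest horizontal cell row was also the row with the most UMIs of all 116, 7616, and stood at 7729 CPM in horizontal cells and 633 CPM in cones. The most restricted one stood at 985 CPM in horizontal cells and 9.20 CPM in cones, 102-fold.

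Cones, rods and bipolar cells had few rows, of which only the 2 higher cone rows were detected in most nuclei of their type. The 2 higher cone rows stood at 1308 and 1141 CPM in cones, were detected in 81.3% and 79.7% of cone nuclei, and had 42.2% and 43.9% of their UMIs in cones, with rods second. The lowest cone row stood at 85.9 CPM and was detected in 15.7% of cone nuclei. The single bipolar cell row stood at 302 CPM and was detected in 45.9% of bipolar nuclei and 1.76% of the others. The 3 rod rows stood at only 49.8, 13.1 and 12.9 CPM in rods and were detected in 1.89% or fewer of rod nuclei.

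**Figure D2:**
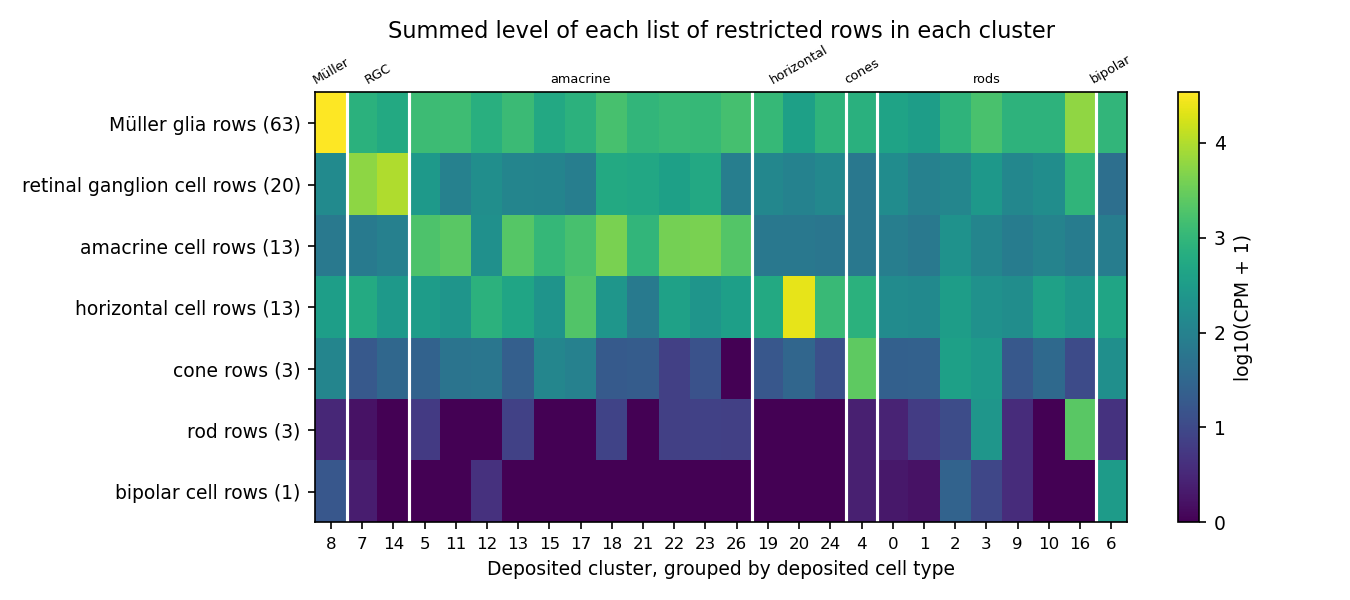
Summed level of each list of restricted rows (y axis, number of rows in brackets) in each deposited cluster (x axis, grouped by deposited cell type), with colour giving log10 of CPM + 1. The horizontal cell list stands out in cluster 20 at 22845 CPM, the rod list in cluster 16 at 2347 CPM, and cluster 16 also holds the Müller glia list at 6084 CPM.

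The 3 rod rows had most of their rod UMIs in cluster 16. The first had 3 UMIs in wild-type rods and 404 in knockout rods, and the others, rows 14493 and 15352, had 0 and 107 and 0 and 105. Cluster 16 held 273 of 407, 105 of 107 and 96 of 105 of their rod UMIs. The knockout levels in rods were 88.3, 23.4 and 22.9 CPM. The first was 106-fold above wild-type (interval 35.9 to 515), and the others were at least 28.0-fold and 27.5-fold higher, against a floor of 3 counts in the wild-type rods. All 3 were past 2-fold, where 5.43% of 10549 rows in rods were higher, but they entered the list through their knockout level, so nothing is read from that. Without cluster 16 no row met the rule for rods. In rods outside it the first row still had 3 UMIs (0.836 CPM) in wild-type and 131 (29.9 CPM) in knockout. Row 14493 had 0 and 2 UMIs there, and row 15352 had 0 and 9.

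Within cluster 16 the 3 rows did not mark the same nuclei. Of its 78 nuclei 39 had a UMI of the first row, 36 of row 14493 and 34 of row 15352. The first row shared 28 nuclei with row 15352 and 14 with row 14493, those 2 rows shared 15, and 63 nuclei had at least 1 of the 3. The first row also had 83 UMIs in 6 nuclei of cluster 3, another rod cluster. In cluster 16 the deposited microglia score was above 0.1 in 7 of the 36 nuclei with row 14493 and in 6 nuclei without it. No nucleus with the first row or row 15352 had a score above 0.1. The deposited rod score in cluster 16 had a median of 0.0241 in nuclei with the first row and 0.0948 in those without, against 1.20 in rods outside the cluster without the row. The nuclei of cluster 16 thus carry the label of rods with a low rod score. Rods of clusters 9 and 10 without the first row had low medians too, of -0.0202 and 0.146.

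Cluster 16 also carried Müller glia rows, but not the whole list. The list summed to 6084 CPM there, against 34070 CPM in Müller glia and 850 CPM in the other nuclei. Of the 63 rows, 6 stood above their level in Müller glia, 35 at 10% of it or less, and 17 had no UMI. Of the 10 rows highest in Müller glia, 8 stood at 10% or less. The highest ratio was a row at 332 CPM in cluster 16 (interval 257 to 421), 149 CPM in Müller glia and 3.10 CPM in the other nuclei. This comparison was also chosen after seeing the data.

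How far the restriction carries from one library to the other can be read without reusing the same counts. The rule applied to the wild-type library alone took 73 rows. In the knockout library the same type was highest for all 73, with 49 (67.1%) at 10-fold or more, 70 at 5-fold or more, and a median fold of 15.3. Over all 9020 rows of 100 UMIs or more the highest type was the same for 43.3%, and 1.09% had the same type highest at 10-fold or more in the knockout library. The rule applied to the knockout library alone took 71 rows, and in the wild-type library 68 kept their highest type, 47 (66.2%) at 10-fold or more (background 1.24%). The 2 lists shared 42 rows, 57.5% of the first and 59.2% of the second. The cell type labels were made from both libraries, so the libraries are not fully independent.

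Carry-over differed among the types. Of the Müller glia rows, 35 of 49 chosen in wild-type reached 10-fold in knockout and 30 of 34 chosen in knockout reached it in wild-type. Ganglion cells gave 7 of 10 and 8 of 13, and amacrine cells 5 of 6 and 5 of 9. Of 11 horizontal cell rows chosen in the knockout library 3 reached 10-fold in wild-type and all 11 kept their type. None of 5 cone rows chosen in wild-type reached 10-fold in knockout, with a median of 8.08, and neither of 2 rod rows chosen in knockout kept rods as the highest type. The 116 rows themselves were chosen on the sum of both libraries, so their folds in each are largely fixed by the rule and are only described: the medians were 16.8 in wild-type and 16.5 in knockout, and 107 rows stood at 5-fold or more in each.

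**Figure D3:**
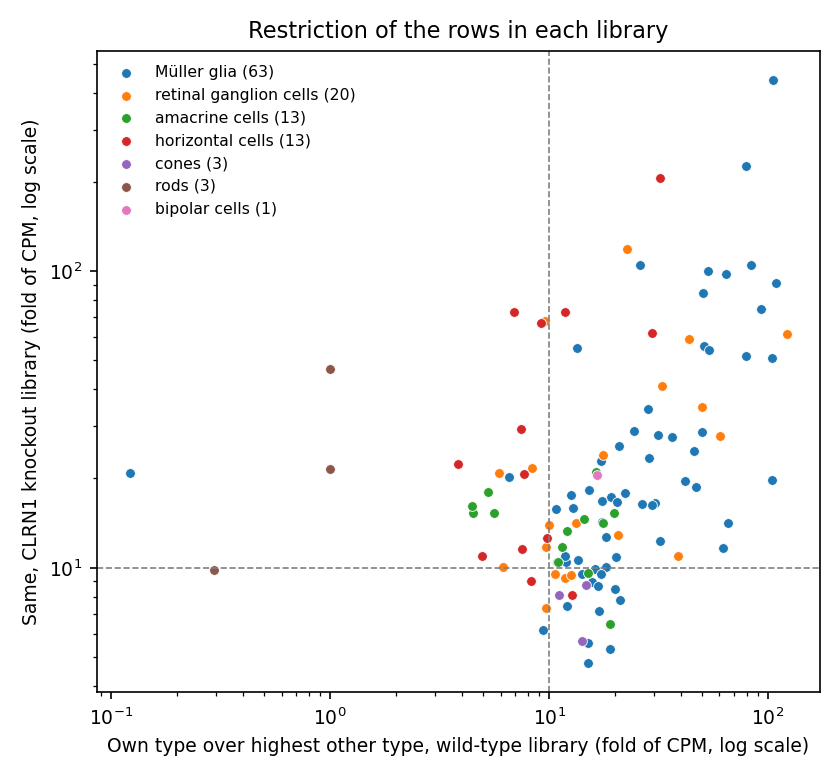
Each point is 1 of the 116 rows, placed by how far its own cell type stood above the highest other type in the wild-type library (x axis) and in the CLRN1 knockout library (y axis), both as folds of CPM with 0.5 added, on log scales. Dashed lines mark 10-fold. The median fold is 16.8 in wild-type and 16.5 in knockout, and the 3 rod rows and 1 Müller glia row lie at 1-fold or less in wild-type.

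The level of the rows within their own cell type was then set against genotype. This ratio of knockout to wild-type was not used by the rule, but rows that are high in 1 library only can enter through it, as the rod rows did. The count of rows at or past 2-fold is given beside the share of all rows with 20 or more UMIs in that cell type that passed the same limit. Each of the 116 rows had at least 46 UMIs in its own type. In sums per cell type, a change per nucleus and a shift among the kinds of nuclei in that type cannot be told apart, so values within clusters are given where 1 cluster holds the rows.

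Müller glia rows were lower in the knockout library as a group, by a moderate amount. The rule was met in wild-type alone by 44 rows and in knockout alone by 32, so their choice leaned towards wild-type. Müller glia rows are therefore described beside the backgrounds without a test, and nothing is read from the counts. They took 3.76% of Müller glia UMIs in wild-type and 2.90% in knockout, a log2 ratio of -0.37 (-0.42 to -0.33). Of the 63 rows, 49 lay below 0, against 46.0% of 4038 rows in Müller glia, and the median log2 ratio was -0.34 (order-statistic interval -0.47 to -0.22), against 0.04 over all rows. It was -0.34 as well with the 1 row without a wild-type UMI at its bound. At or past 2-fold, 7 rows were lower (background 4.01%) and 1 was higher (background 5.42%), the one carried by a single nucleus. The interval lay below 0 for 22 rows (background 6.84%) and above 0 for 2 (background 8.37%), and 14 rows lay above 0 (background 54.0%). The wild-type library had 131 Müller glia nuclei with a median of 1622 UMIs and the knockout library 54 with a median of 2597. With nuclei of 1000 UMIs or more the median log2 ratio was -0.26, with 6 rows 2-fold lower and 1 higher.

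Single Müller glia rows ranged widely around this median. Row 3726 had 215 UMIs (821 CPM) in wild-type and 46 (255 CPM) in knockout Müller glia, a log2 ratio of -1.67 (-2.18 to -1.22). Row 1154 had 102 UMIs (389 CPM) and 25 (138 CPM), -1.47 (-2.18 to -0.85). These 2 had the lowest ratios of all restricted rows with 100 or more UMIs in their type. The highest row had 4931 CPM in wild-type and 3806 CPM in knockout, -0.37 (-0.51 to -0.24), and the most restricted row 1717 and 1474 CPM, -0.22 (-0.45 to 0.00). Lower levels were not shared by each row: a row of 231 and 187 UMIs stood at 882 CPM in wild-type and 1036 CPM in knockout.

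**Figure D4:**
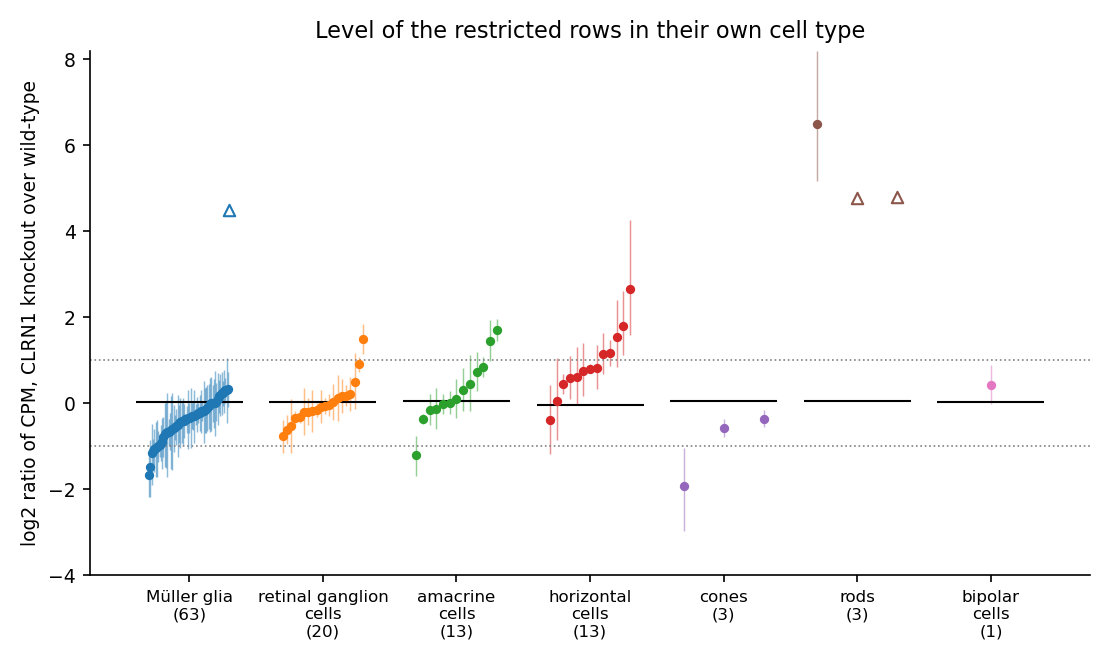
The log2 ratio of CPM, CLRN1 knockout over wild-type, of each restricted row in its own cell type (number of rows in brackets), sorted within type, with exact 95% intervals for counting error cut at the edge of the plot. Black lines mark the median of all rows in that type, dotted lines 2-fold, and open triangles the lower bound of rows without a wild-type UMI. Of 63 Müller glia rows 49 lie below 0, and of 13 horizontal cell rows 12 lie above 0.

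Horizontal cell rows were higher in the knockout library, and their median ratio was near 0 within cluster 20. Of the 13 rows, 1 met the rule in the wild-type library alone and 9 in the knockout library alone. Their choice thus leaned on the knockout level, so the counts beside the backgrounds are described and nothing is read from them. They took 0.816% of horizontal cell UMIs in wild-type and 1.44% in knockout, with 12 of 13 rows above 0 (background 47.0%) and a median log2 ratio of 0.80 (0.45 to 1.55), against -0.05 over all rows. At or past 2-fold 5 rows were higher (background 5.78%) and 0 lower (background 6.15%), and the interval lay above 0 for 10 rows (background 8.48%) and below 0 for 0 (background 10.4%). Cluster 20, where the rows are found, had 23 of the 84 wild-type and 46 of the 97 knockout nuclei of this type. Within it the list stood at 21541 CPM in wild-type and 23277 CPM in knockout, a log2 ratio of 0.11, and the median of the 12 rows with 20 or more UMIs was 0.080. The highest row had 13981 CPM in wild-type and 14825 CPM in knockout there. Of the 12 rows, 3 stayed 2-fold higher (background 7.37%), with 18 UMIs against 120, 12 against 89 and 6 against 73, and 0 were 2-fold lower (background 5.01%). The interval lay above 0 for 4 of the 12 (background 5.81%) and below 0 for 1 (background 5.57%). The part of the share of cluster 20 nuclei in the ratio per cell type was not tested.

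Ganglion cell rows were level between libraries, with 0.601% of ganglion cell UMIs in wild-type and 0.606% in knockout. The median log2 ratio was -0.06 (-0.19 to 0.17), 12 of 20 rows lay below 0 (background 46.9%), and 1 row passed 2-fold upwards (background 5.80%) and 0 downwards (background 2.22%). The interval lay above 0 for 2 rows (background 10.7%) and below 0 for 5 (background 7.57%). That row was the one found mostly in cluster 14: 119 CPM in wild-type and 337 CPM in knockout ganglion cells, 1.49 (1.15 to 1.85). Within cluster 14 it stood at 2755 and 3045 CPM, 0.13 (-0.30 to 0.62), and within cluster 7 at 55.1 and 79.2 CPM, 0.52 (-0.06 to 1.13). Within cluster 7 no row of the 20 was 2-fold higher (background 3.91%) or lower (background 2.00%). Cluster 14 held 26 of the 148 wild-type and 81 of the 176 knockout nuclei, and the part of this difference in the row's ratio was not tested.

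Amacrine cell rows gave no common direction. They took 0.204% of amacrine UMIs in wild-type and 0.222% in knockout, with a median log2 ratio of 0.10 (-0.14 to 0.84), against 0.07 over all rows, and 8 of 13 rows above 0 (background 55.3%). At or past 2-fold 2 rows were higher (background 7.95%) and 1 lower (background 2.05%). The interval lay above 0 for 4 rows (background 18.0%) and below 0 for 2 (background 11.6%). The row second by level had 156 UMIs in wild-type (105 CPM) and 561 in knockout (342 CPM), 1.70 (1.44 to 1.97). It was higher in knockout in each of the 6 clusters where it had 20 or more UMIs, with log2 ratios from 0.99 to 2.82. A second row had 49 and 148 UMIs (33.0 and 90.2 CPM), 1.44 (0.98 to 1.95), of which cluster 18 held 45 and 105. The row that was lower had 128 and 61 UMIs (86.2 and 37.2 CPM), -1.21 (-1.68 to -0.76). Its ratio was below 0 in each of its 3 clusters with 20 or more UMIs, 11, 18 and 23. The interval lay below 0 in cluster 11 (-2.08 to -0.75) and held 0 in clusters 18 and 23. The highest amacrine row stood at 1009 and 783 CPM, -0.37 (-0.47 to -0.26).

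Of the cone rows, all 3 had ratios below 0 (background 45.0%), with intervals below 0 (background 7.18%). But 2 of them met the rule in the wild-type library alone and 0 in the knockout library alone. Their choice thus leaned on the wild-type level, and nothing is read from these counts. The highest stood at 1483 CPM in wild-type cones and 1159 CPM in knockout cones, -0.36 (-0.55 to -0.16). The second stood at 1383 and 934 CPM, -0.56 (-0.78 to -0.35). The third had 43 and 13 UMIs, 143 and 36.9 CPM, and passed 2-fold, -1.92 (-2.98 to -1.03), where 3.96% of 4623 rows in cones did. None was 2-fold higher (background 4.39%). Together they took 0.301% of cone UMIs in wild-type and 0.213% in knockout. The bipolar cell row had 81 UMIs (262 CPM) and 83 UMIs (354 CPM), 0.44 (-0.02 to 0.90), an interval that holds 0, and did not pass 2-fold in either direction (backgrounds 5.64% higher and 3.90% lower).

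The highest horizontal cell row behaved differently outside its own type. In wild-type cones it had 410 UMIs (1366 CPM), and in knockout cones 3 UMIs (8.52 CPM), a ratio of wild-type to knockout of 160 (54.5 to 781). Its log2 ratio of -7.10 was the lowest of the 4623 rows tested in cones. That rank is only described, since the row met the rule in the knockout library alone, where its cone level was low. The row stood 3.83-fold above the highest other type in wild-type and 22.3-fold in knockout. It was detected in 89 of 182 wild-type cone nuclei, 48.9% (exact Clopper-Pearson interval 41.4 to 56.4), and in 2.44% of knockout ones (0.506 to 6.96). Thinned to 1000 UMIs per nucleus the shares were 44.4% of 144 nuclei and 0.658% of 114, with 38 and 9 shallower nuclei left out. No single nucleus carried it: 18 nuclei held 50% of the wild-type UMIs, and the highest had 33.

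The other 12 horizontal cell rows summed to 173 CPM (52 UMIs) in wild-type cones and 111 CPM (39 UMIs) in knockout cones. Among wild-type cones they stood at 252 CPM in nuclei with the highest row and 89.5 CPM in nuclei without it. The wild-type cones with the row had a median cone score of 1.08, those without it 1.11, and knockout cones 1.11. The horizontal cell score was above 0 in 7 of the 89 nuclei with the row and in 5 of the 93 without it. In rods it was lower in knockout, at 200 and 68.2 CPM (12.3% and 7.97% of nuclei), and in bipolar cells at 378 and 269 CPM (38.7% and 27.5%). In ganglion cells it stood at 475 and 409 CPM, with an interval of the log2 ratio of -0.43 to -0.0014. In amacrine cells it stood at 277 and 241 CPM, with an interval that holds 0 and detection in 23.6% and 28.1% of nuclei. In Müller glia it stood at 267 and 33.2 CPM, but few nuclei carried it: 70 UMIs in 11 wild-type nuclei (8.40%), up to 17 in a single nucleus, and 6 UMIs in 5 knockout nuclei (9.26%). In horizontal cells it was higher, at 5228 and 9136 CPM.

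**Figure D5:**
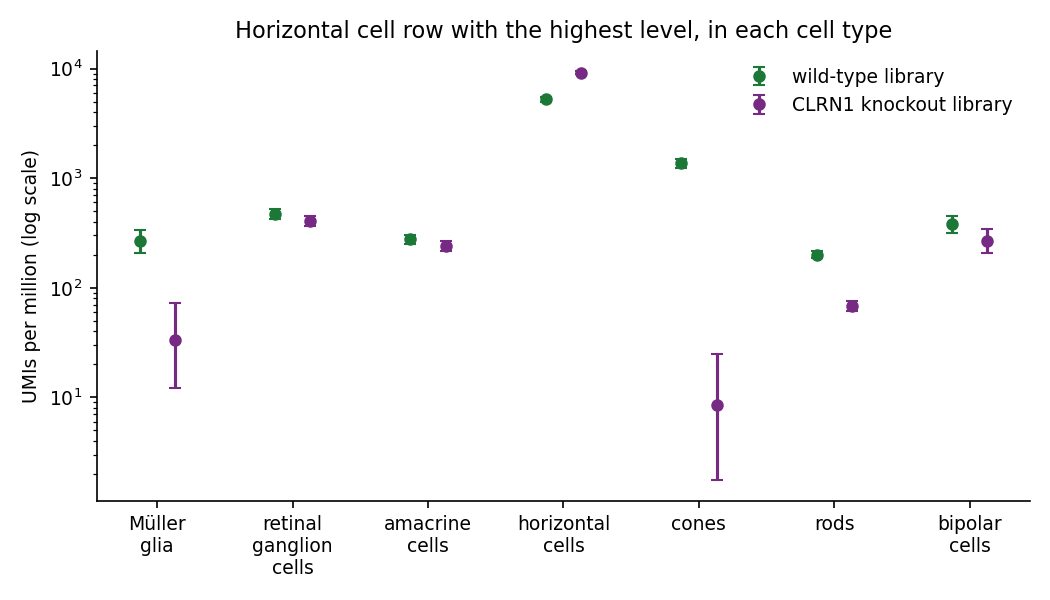
Level of the horizontal cell row with the highest own-type level in each cell type (x axis), in CPM on a log scale, for the wild-type and the CLRN1 knockout library, with exact Poisson 95% intervals for counting error. In cones it stands at 1366 CPM in wild-type and 8.52 CPM in knockout, and in horizontal cells at 5228 and 9136 CPM.

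Rods also held many UMIs of the Müller glia rows, and there the comparison of libraries turned on cluster 16. Of 58 Müller glia rows with 20 or more UMIs in rods, 20 were at least 2-fold higher in knockout rods (background 5.43%) and 9 at least 2-fold lower (background 1.74%). Without cluster 16, 4 of 54 were higher (background 2.74%) and 12 lower (background 2.03%). The summed list stood at 866 CPM in wild-type rods and 886 CPM in knockout rods with the cluster included. The median log2 ratio of the rows was -0.09 with the cluster and -0.50 without it.

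Some nuclei carried UMIs of several lists. With at least 10 UMIs of a list as the limit, 896 nuclei carried 1 list and 121 carried 2 or more, 43 of them wild-type and 78 knockout. The 121 were 11.9% of the nuclei that reached the limit for any list, and 1.85% of all nuclei. Nuclei with 2 or more lists were deeper, with a median of 7100 UMIs against 3854 in those with 1. Whether these are doublets was not tested, since the doublet caller run on each library marked no nucleus.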

How the data were processed

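Single-nucleus RNA libraries, 1 per genotype, were made with 10x Genomics 3′ chemistry v3.1 from pooled retinal nuclei. Per the submitters' processing notes the build was OryCun2.0 and the tools DESeq2 1.38.0, Seurat 4.3.0 and Cell Ranger 7.0, with roles unstated. Filters on nuclei and on free RNA are not stated. The authors deposited raw UMI counts in a matrix without gene or nucleus names, a mitochondrial percent per nucleus, and per-nucleus module scores without gene lists. Cell types and clusters are the authors'. The embedding was not used.

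Matrix columns were tied to the table of nuclei by position: UMI totals and detected rows agreed in all 6542, the pair was unique for 6315, and 10 rows summed to the mitochondrial UMIs in all 6542. Libraries came from the table. The animal of each nucleus, which the labels say was determined from sequence variants, was not used here.

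The members and lists were chosen with earlier results of these data known. Ratios of CPM carry 0.5 UMI added to each count, and exact conditional binomial intervals at 95%; intervals of levels are Poisson. Rows with at least 20 UMIs in a type were compared, and 2-fold was the limit. Row numbers are printed for 4 rows, those with the 2 highest and 2 lowest ratios (0.5 UMI added) among members with at least 100 UMIs in their type, of which the 2 highest have no wild-type UMI, so their rank rests on the added value; other rows are described by level. The rule was tested on simulated data. Scrublet in scanpy 1.11.5 marked 0 of 6542 nuclei and no doublets were removed. Python 3.11.15, numpy 2.4.6, pandas 2.3.3 and SciPy 1.17.1 were used.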

Additional observations from a re-analysis of the deposited data

Results flagged for a closer look

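Restricted rows moved in opposite directions in 2 cell types: the median log2 ratio of knockout to wild-type was -0.34 for Müller glia rows in Müller glia and 0.80 for horizontal cell rows in horizontal cells. The difference was not tested, and within cluster 20 the horizontal cell median was 0.080. The rule was met in wild-type alone by 44 Müller glia rows and in knockout alone by 32. For horizontal cell rows these counts were 1 and 9, so the choice of rows leaned the same way as the medians.

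The highest horizontal cell row had a log2 ratio of -7.10 in cones and 0.80 in horizontal cells. The difference was not tested, and within cluster 20 the ratio was 0.08. The row met the rule in the knockout library alone, where its cone level was low.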

How the results depend on the processing

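The count of 116 restricted rows, 63 of them in Müller glia, moved with the limit of the rule: 265 rows (115 in Müller glia) at 5-fold and 49 (33) at 20-fold. A single library gave 73 rows in wild-type and 71 in knockout (34 in Müller glia). Under the other alternatives both counts stayed within 1.5 times. Over 16 alternatives ganglion cells had 8 to 39 rows, amacrine cells 1 to 34, horizontal cells 2 to 34, cones 0 to 21, rods 0 to 7 and bipolar cells 0 to 15. The percent of knockout-chosen rows at the limit in wild-type was 52.9 at 20-fold.

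The median log2 ratio stayed within its interval under each alternative in Müller glia (-0.38 to -0.26), ganglion and amacrine cells. In horizontal cells it was 0.080 without clusters 9, 10, 14, 16, 19 and 24 and 0.080 within cluster 20, with 3 rows higher in both. At a 1.5-fold limit 19 Müller glia rows were lower, 9 horizontal and 4 amacrine rows higher, and 2 ganglion cell rows each way. By intervals beside 0, 22 Müller glia rows were lower and 2 higher, 5 ganglion cell rows lower and 2 higher, 2 amacrine rows lower and 4 higher, and 10 horizontal rows higher. The 1 higher Müller glia row was gone (0) with at least 50 UMIs or no pseudocount, and the 1 higher ganglion cell row (0) without the 6 clusters or within cluster 7. Cluster 16, the highest nucleus, single clusters, intervals, and 5-fold and 20-fold carry-over were chosen after seeing the data.

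Alternatives without doublets were not run, since none was marked. No paired analysis was possible because each genotype has 1 library. Depth limits the small types: 1 UMI is 2.26 CPM in Müller glia.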
